A study of Mus musculus with 4 samples.

Results

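The muscle miRNAs of mouse fetal liver are the subject here: the 6 annotated hairpins Mir1a-1, Mir1a-2, Mir133a-1, Mir133a-2, Mir133b and Mir206, of 2202 mouse hairpins in the annotation. They were chosen by name, with their read counts in these libraries already known, so their levels are given as a description. Reads of 18 to 27 nt that matched a hairpin without mismatch were counted for its 5p or 3p arm, the strand on the 5′ or 3′ side of the hairpin. In all 5156 reads fell on their arms. The 3p arms of Mir1a-1 and Mir1a-2 are alike, as are those of Mir133a-1 and Mir133a-2, so the copies were counted together. Of 7 arms with a read, the 3 most frequent passed the filter on low counts: miR-1a-3p, miR-206-3p and the 3p arm that miR-133a and miR-133b share.

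Small RNA of whole fetal liver was sequenced from wildtype animals and from animals with a catalytic dead Ago2 (Ago2 CD), with 2 libraries of each genotype. Ago2, an Argonaute, carries small RNAs to their targets and has a slicing activity, which a catalytic dead form lacks. The label does not say which allele it is, and the libraries are called mutant below. The sources used here do not give fetal age, strain, any treatment or whether livers were pooled. The series calls the libraries of a genotype biological replicates.

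MiR-1, miR-133 and miR-206 are called myomiRs because striated muscle makes them in large amounts. Myogenic factors such as MyoD and MEF2 switch on their genes, and the miRNAs in turn act on muscle growth and differentiation. MiR-1a and miR-133a are made in both heart and skeletal muscle, from paired genes, whereas miR-206 and miR-133b come from a separate locus active in skeletal muscle. Hepatocytes and the blood-forming cells of fetal liver are not known for making them.

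Mature sequences are shown for the members that separate skeletal from shared muscle miRNAs, because the comparisons below turn on their bases. They are from RefSeq (GRCm38.p6, plus strand), which matched 5 arms of 3 hairpins, and are written 5′ to 3′ with the seed, bases 2 to 8, in capitals.
miR-206-3p: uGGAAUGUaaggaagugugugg
miR-206-5p: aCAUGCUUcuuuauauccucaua
miR-133b-3p: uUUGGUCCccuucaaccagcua
miR-133b-5p: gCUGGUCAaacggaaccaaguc
miR-1a-1-5p: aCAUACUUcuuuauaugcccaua
MiR-206-3p lies at chr1:20679055-20679076 and miR-133b-3p at chr1:20682834-20682855. The main read of miR-1a-3p has the seed GGAAUGU of miR-206-3p and differs from it at 4 of 22 bases. Among tested arms, these 2 were the ones whose commonest read had this seed. MiR-133a-3p and miR-133b-3p differ at 1 of 22 bases, near the 3′ end, and have the same seed. A read tells them apart only if it reaches that base.

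Depth was 13138065 to 21875540 reads per library, of which 7814124 to 14423028 were assigned to a hairpin arm. Levels are counts per 1000000 arm reads (CPM) after TMM scaling, which evens out a few very abundant miRNAs. Read lengths reached 50 nt in wildtype 1 and mutant 2 but 46 nt in wildtype 2 and mutant 1. Both genotypes thus have a library of either read length, and values within a read length are given beside the pooled ones. With 2 libraries per genotype the smallest exact permutation p is 0.333, so p-values from single shares can make no call.

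The muscle miRNAs stood out in 1 library, wildtype replicate 1. It held 4276 of their 5156 reads (82.9%), against 280 in wildtype replicate 2, 265 in mutant replicate 1 and 335 in mutant replicate 2. Summed over arms wildtype replicate 1 had 715 CPM, and the others 31.6, 13.3 and 35.2 CPM in that order. The share of all arm reads was 0.0442%, 0.00305%, 0.00184% and 0.00429%. The genotypes overlapped, since wildtype replicate 2 lay between the mutant libraries.

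MiR-1a-3p, the form made in heart and skeletal muscle alike, was read 1268 times in wildtype replicate 1, 145 times in wildtype replicate 2, and 134 and 118 times in mutant replicates 1 and 2. The levels were 212 and 16.4 CPM in wildtype against 6.73 and 12.4 CPM in the mutant. Wildtype replicate 1 was 12.9-fold above wildtype replicate 2 (95% counting interval 10.9 to 15.5). The intervals of folds and shares are exact and cover counting error only, since reads carried no molecular identifiers. They do not cover the choice of scaling: per 1000000 reads from 18 nt up the fold was 7.14 for miR-1a-3p, below that interval, and 17 for miR-133-3p and 23.6 for miR-206-3p. In this count both mutant libraries lay below both wildtype libraries. It leaves out 3 reads of 16 to 17 nt and 5 tailed ones in wildtype replicate 2, and 47 and 45 in mutant replicate 2. With these, mutant replicate 2 had more miR-1a-3p reads than wildtype replicate 2, from 10229493 and 10297544 arm reads. Wildtype replicate 2, at 16.4 CPM, was nearer to the mutant libraries than to wildtype replicate 1.

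MiR-206-3p, the skeletal form with the same seed, had 780 and 27 reads in wildtype against 39 and 51 in the mutant. This was 130.5 and 3.05 CPM in wildtype against 1.96 and 5.36 CPM in the mutant. The fold of wildtype replicate 1 over wildtype replicate 2 was 42.8 (95% interval 29.2 to 65.3), an interval above that of miR-1a-3p. Over mutant replicate 2, which has the same read length, the folds were 24.3 (18.3 to 33.0) for miR-206-3p and 17.1 (14.1 to 20.8) for miR-1a-3p. Those intervals overlap.

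The shared miR-133-3p arm had 2171 and 104 reads in wildtype against 91 and 161 in the mutant, or 363 and 11.8 CPM against 4.57 and 16.9 CPM. It was the most frequent of the members in both libraries of 50 nt, and miR-1a-3p was the most frequent in both of 46 nt. MiR-133-3p made up 50.8% and 48.1% of member reads in wildtype replicate 1 and mutant replicate 2, and 37.1% and 34.3% in wildtype replicate 2 and mutant replicate 1. Among 584 tested arms, miR-133-3p ranked 124 by level in wildtype replicate 1 and 355, 420 and 323 in wildtype replicate 2 and mutant replicates 1 and 2. MiR-206-3p ranked 179, then 457, 481 and 404.

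**Figure D1:**
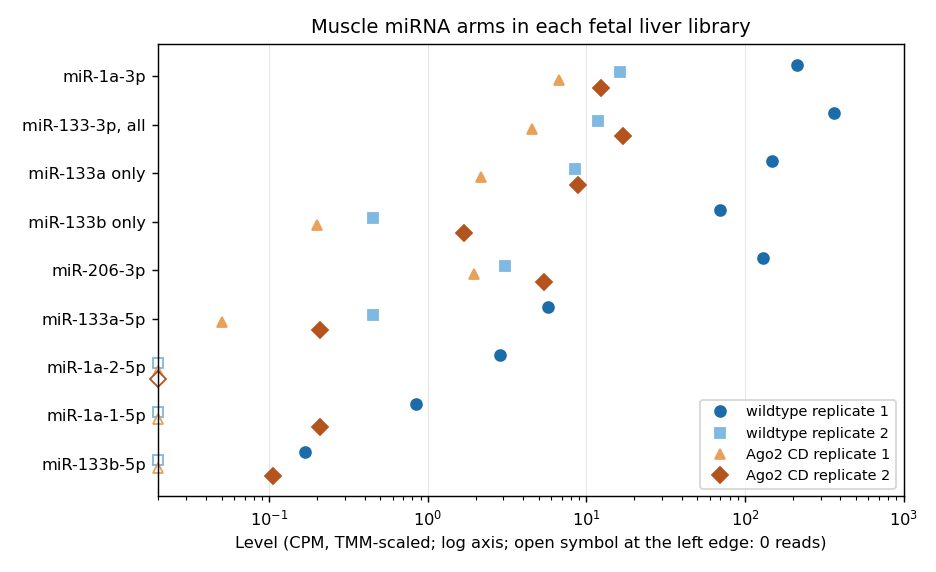
Level of each muscle miRNA arm in each library, in CPM on a log axis, with 1 symbol per library and open symbols for 0 reads. Wildtype replicate 1 lies to the right of the other 3 libraries for each arm shown, from 363 CPM for miR-133-3p to 0.167 CPM for miR-133b-5p. That last level is 1 read. Mutant replicate 2 also had 1 read of miR-133b-5p, so the order for this arm rests on the scaling.

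Reads that match only the miR-133a hairpins or only the miR-133b hairpin split the shared arm. Those of miR-133a alone numbered 882 and 75 in wildtype against 43 and 84 in the mutant, and those of miR-133b alone 417 and 4 in wildtype against 4 and 16 in the mutant. The rest, 872 and 25 in wildtype against 44 and 61 in the mutant, stopped before the last base. Wildtype replicate 1 was 154-fold above wildtype replicate 2 for miR-133b (95% interval 59.8 to 569) and 17.4-fold for miR-133a (13.7 to 22.3). Over mutant replicate 2, which has the same read length, the folds were 41.5 (25.2 to 73.2) for miR-133b and 16.7 (13.3 to 21.1) for miR-133a. The reads of the skeletal hairpin thus had the higher fold in either comparison, with a smaller gap within the read length. A count of 4 gives the first fold a wide interval.

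Skeletal members were set against shared members by a share within each library, which does not depend on scaling. MiR-133b made up 32.1% (95% interval 29.6% to 34.7%) of the reads that tell the pair apart in wildtype replicate 1. In wildtype replicate 2 it made up 5.06% (1.40% to 12.5%), in mutant replicate 1 8.51% (2.37% to 20.4%) and in mutant replicate 2 16% (9.43% to 24.7%). The interval of wildtype replicate 1 lay above those of the other 3 libraries. The share was also higher in both libraries of 50 nt than in both of 46 nt. The interval of mutant replicate 2 overlapped those of the libraries of 46 nt. Between genotypes the difference was -6.33 percentage points (18.6% ± 19.1 in wildtype against 12.3% ± 5.30 in the mutant, SD, n = 2; exact permutation p = 1.0, two-sided). It was 7.19 points without wildtype replicate 1. A shared read that stops just short of the differing base and gains an untemplated A also reads as miR-133b. Single added A bases beyond these sites were seen on 30 of 2846 and 13 of 128 miR-133-3p reads, tailed or not, in wildtype replicates 1 and 2. In mutant replicates 1 and 2 they were seen on 10 of 107 and 6 of 241. As a part of the reads they were thus rarest in wildtype replicate 1.

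MiR-206-3p made up 38.1% (95% interval 36.0% to 40.2%) of miR-206-3p and miR-1a-3p reads in wildtype replicate 1 and 15.7% (10.6% to 22%) in wildtype replicate 2. In the mutant the shares were 22.5% (16.5% to 29.5%) and 30.2% (23.4% to 37.7%). Read ends, described next, entered these values. With reads of 16 and 17 nt and reads with 1 to 3 added 3′ bases counted too, the shares were 27.5% (25.9% to 29.1%) and 16.8% (11.7% to 23.1%) in wildtype against 23.9% (17.9% to 30.7%) and 21.9% (17.1% to 27.4%) in the mutant. Wildtype replicate 1 was then above wildtype replicate 2 but overlapped both mutant libraries. Between genotypes the share differed by -0.53 points (26.9% ± 15.8 and 26.4% ± 5.40, SD, n = 2; exact permutation p = 1.0, two-sided) and by 0.76 points with the wider set of reads.

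**Figure D2:**
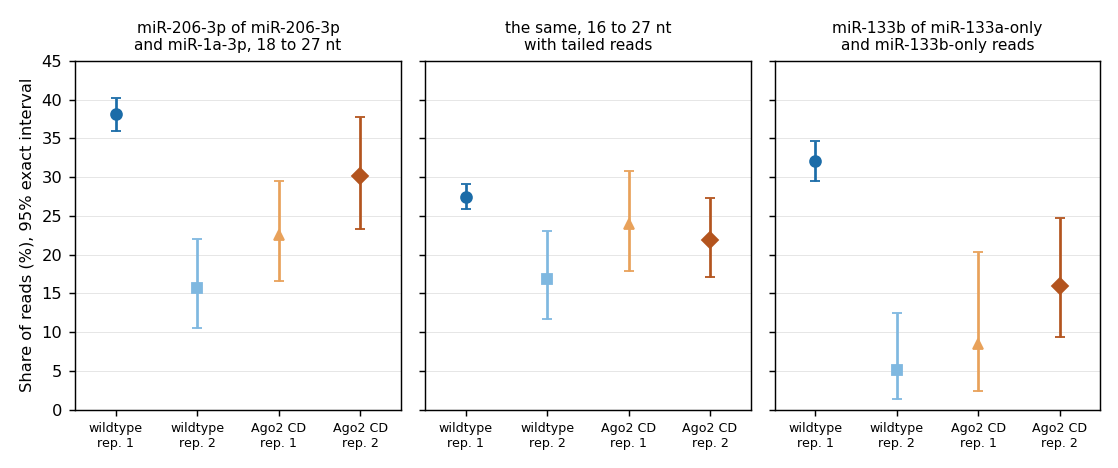
Share of the skeletal member among reads of a pair in each library, in percent, with exact 95% intervals that cover counting error. In the right panel the miR-133b share of wildtype replicate 1 (32.1%) stands above the other 3 libraries, and in the middle panel its miR-206-3p share (27.5%) overlaps the mutant libraries.

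The 3′ ends of these miRNAs followed the read length of the library and not the genotype. Forms of miR-206-3p are shown, as DNA, because no read of the annotated 22 nt form was seen in the libraries of 50 nt. Capitals mark the last 3 bases of the annotated form.
miR-206-3p, 22 nt: tggaatgtaaggaagtgtgTGG
miR-206-3p, 21 nt: tggaatgtaaggaagtgtgtg
miR-206-3p, 19 nt: tggaatgtaaggaagtgtg
The 22 nt form had 0 reads in wildtype replicate 1 and mutant replicate 2, and 25 and 35 in wildtype replicate 2 and mutant replicate 1. The 19 nt form had 693 and 48 reads in the former and 0 in each of the latter. The 21 nt form had 46 and 2, then 1 and 1.

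As a share of untailed miR-206-3p reads from the main 5′ end, the 19 nt form was 88.5% (95% interval 86.1% to 90.7%) in wildtype replicate 1 and 92.3% (81.5% to 97.9%) in mutant replicate 2. The 22 nt form was 86.2% (68.3% to 96.1%) and 85.4% (70.8% to 94.4%) in wildtype replicate 2 and mutant replicate 1. Its absence at 50 nt allows a share of up to 0.383% in wildtype replicate 1 and 5.77% in mutant replicate 2. The pattern was not particular to miR-206: of all hairpin reads of 18 to 27 nt, 4 and 2 ended in TGG in the libraries of 50 nt, against 237360 (2.59%) and 517466 (3.59%) in those of 46 nt. In 15 tested arms the commonest read at 46 nt, with at least 20 copies, ended in TGG. That read made up 57.3% and 54.9% of their reads at 46 nt, and 0.00148% and 0% at 50 nt. The cause was not tested.

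MiR-1a-3p, which does not end in these bases, showed another end of the same kind. Reads of 17 nt from its main 5′ end, under the 18 nt minimum, numbered 486 in wildtype replicate 1 and 46 in mutant replicate 2, and 2 and 0 in the libraries of 46 nt. They were 28.1% (95% interval 26.0% to 30.3%) and 28.6% (21.7% to 36.2%) of its untailed reads at 50 nt. A single added C was found on 23.0% (21% to 25.1%) and 25.8% (19.2% to 33.2%) of miR-1a-3p reads at 50 nt, and on 0 of 150 and 4 of 139 at 46 nt. MiR-133-3p carried an added C in 379 and 49 reads at 50 nt and in 0 at 46 nt. An untailed count therefore leaves out about as large a part of miR-1a-3p in both libraries of 50 nt.

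**Figure D3:**
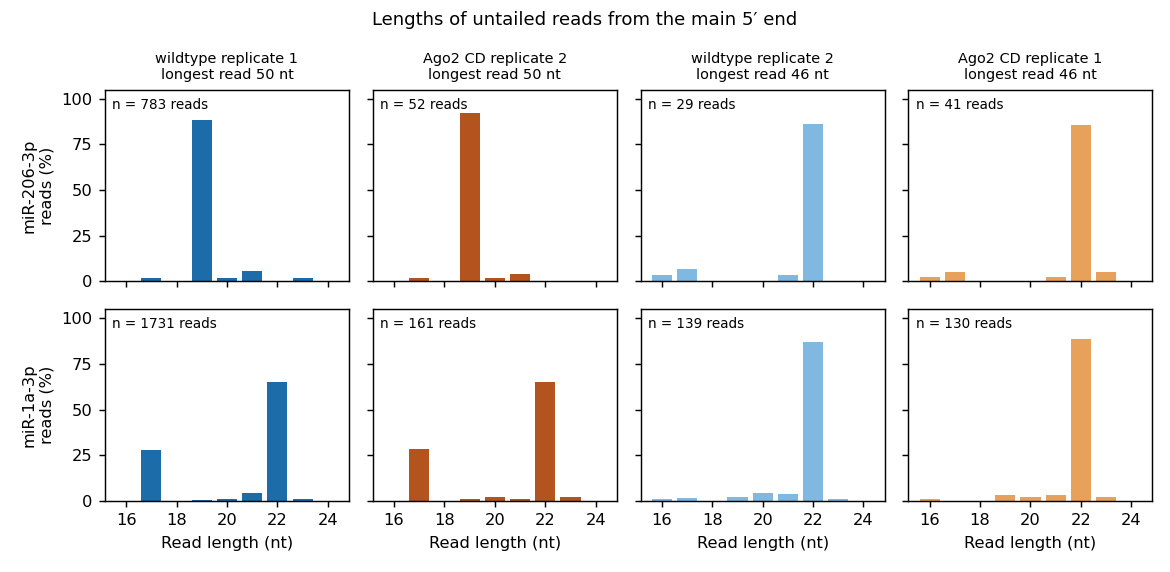
Length of untailed miR-206-3p (top) and miR-1a-3p (bottom) reads from the main 5′ end, as percent of such reads per library, with the number of reads in each panel. In both 50 nt libraries miR-206-3p peaks at 19 nt and miR-1a-3p has a second peak at 17 nt, whereas both peak at 22 nt in the 46 nt libraries.

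The 5′ end sets the seed and was steadier, except in miR-133a. The main 5′ end held 98.6% and 96.3% of miR-206-3p reads in wildtype against 97.4% and 100% in the mutant (difference 1.27 points, exact permutation p = 0.667, two-sided). It held 93.8% to 98.2% of miR-1a-3p reads over the 4 libraries. Of the reads of miR-133a alone, 48.6% and 46.7% in wildtype against 46.5% and 61.9% in the mutant started at the base where annotated miR-133b-3p starts. A start 1 base further in, which moves the seed by 1 base, made up 47.7% and 50.7% in wildtype against 39.5% and 36.9% in the mutant. Of the reads of miR-133b alone in wildtype replicate 1, 90.6% (95% interval 87.4% to 93.3%) had the annotated start and 8.87% (6.32% to 12.0%) the shifted one. The libraries other than wildtype replicate 1 held 4, 4 and 16 reads of miR-133b alone, too few to compare. Reads count for one miRNA alone only if they reach the last bases, so short reads are not in these shares. Among the shared shorter reads, the shifted start made up 11.0% and 8% in wildtype against 22.7% and 21.3% in mutant libraries. The mutant shares were lower among miR-133a reads and higher among shared ones (exact permutation p = 0.333 for both, the smallest possible). The 95% intervals of the genotypes overlapped for both kinds of read. Among shared reads they were 9.01% to 13.3% and 0.984% to 26.0% in wildtype against 11.5% to 37.8% and 11.9% to 33.7% in the mutant. Both kinds are parts of the same arm, split by where reads end. With shifts in opposite directions, they do not give the shift of the whole arm.

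The 5p arms are the passenger strands of these hairpins, and they were rare in each library. MiR-133a-5p had 34 and 4 reads in wildtype against 1 and 2 in the mutant, and miR-133b-5p 1 read in wildtype replicate 1 and 1 in mutant replicate 2. The 3p arm made up 98.4% and 96.3% of miR-133 arm reads in wildtype against 98.9% and 98.2% in the mutant. The 5p arms of the miR-1a hairpins differ in sequence, unlike their 3p arms, and so tell the copies apart. MiR-1a-2-5p had 17 reads in wildtype replicate 1 and 0 in the other libraries, at least 8.39-fold, 18.9-fold and 9.01-fold above what 3 counts would give in wildtype replicate 2 and mutant replicates 1 and 2. MiR-1a-1-5p had 5 reads in wildtype replicate 1 and 2 in mutant replicate 2. MiR-206-5p had no read counted in any library, which allows 3 reads in each.

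The loci lie in 3 pairs (GENCODE vM21, GRCm38). Mir206 (chromosome 1, 20679010 to 20679082, plus strand) and Mir133b (20682769 to 20682887) lie 3686 bases apart, both in exons of the long noncoding RNA gene Gm28653. Mir1a-1 (chromosome 2, 180389048 to 180389124, plus strand) and Mir133a-2 (180398379 to 180398482) lie 9254 bases apart and overlap no other annotated gene. Mir133a-1 (chromosome 18, 10782909 to 10782976, minus strand) and Mir1a-2 (10785481 to 10785552) lie 2504 bases apart, inside introns of Mib1 on the other strand and of the antisense RNA gene Mir133a-1hg. Fragments of Gm28653 outside the hairpins numbered 2, both in mutant replicate 2, and Mir133a-1hg had 0. These counts are too low to compare primary transcripts.

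Mir1b is a hairpin on the opposite strand of Mir1a-2. Its 3p arm had 58 and 39 reads in wildtype against 63 and 76 in the mutant, or 9.70 and 4.41 CPM against 3.16 and 7.99 CPM. Wildtype replicate 1 was 2.20-fold above wildtype replicate 2 (95% interval 1.44 to 3.39) and 1.21-fold above mutant replicate 2 (0.847 to 1.73). Per 1000000 reads from 18 nt up, miR-1b-3p stood at 3.79 and 3.12 in wildtype against 3.05 and 5.22 in the mutant, so that mutant replicate 2 was then the highest. MiR-1a-3p reads do not show which of its 2 loci they came from, and are not set against it here. Mir133c, a hairpin on the minus strand at another place on chromosome 2 inside an intron of Med27, had no read on an arm.

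Between genotypes no muscle arm passed the test. In edgeR's quasi-likelihood test of mutant against wildtype, 2 of 584 arms passed an adjusted p of 0.05 (0.342%), 1 higher (0.171%) and 1 lower (0.171%) in the mutant, and 0 of the 3 muscle arms did, with 17 arms at an unadjusted p under 0.05. The log2 fold changes were -3.58 (SE 1.32) for miR-1a-3p, -4.13 (SE 1.77) for miR-133-3p and -4.20 (SE 1.83) for miR-206-3p, each with an edgeR adjusted p of 0.997. With reads of 20 to 24 nt, which leave out the 19 nt form of the libraries of 50 nt, the value for miR-206-3p was -2.84. The fold changes rest on 1 library. Without wildtype replicate 1, in the same order, they were -0.74, -0.12 and 0.27. Within the libraries of 46 nt the log2 differences of mutant from wildtype were -1.26 for miR-1a-3p, -1.33 for miR-133-3p and -0.60 for miR-206-3p. Within those of 50 nt, which include wildtype replicate 1, they were -4.08, -4.41 and -4.56.

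Other ways of testing did call muscle arms lower in the mutant. DESeq2 called miR-1a-3p (adjusted p = 0.0382) and miR-133-3p (0.0474), with miR-206-3p at 0.0501. Without a filter on low counts edgeR called all 3, at adjusted p of 2.87e-07, 5.07e-10 and 5.57e-09 for miR-1a-3p, miR-133-3p and miR-206-3p. Without wildtype replicate 2 edgeR called miR-1a-3p and miR-206-3p (adjusted p = 0.0361 for both, log2 fold change -4.47 and -5.17), with the remaining wildtype library assumed to vary like the mutant ones. Each of these fits holds wildtype replicate 1.

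Across all arms the excess in wildtype replicate 1 was rare. A level at least 8-fold above each of the other 3 libraries was found for 3 of 584 arms (0.514%), and these were miR-206-3p, miR-133-3p and miR-1a-3p. The same 3 arms passed with DESeq2's size factors and when scaled to arm reads. When scaled to the library's reads from 18 nt up, miR-206-3p and miR-133-3p passed and miR-1a-3p did not. That pattern is the one that brought them forward, so it is a description. The median log2 difference of wildtype replicate 1 from wildtype replicate 2 was 4.93 over the 3 muscle arms and -0.02 over all arms, and from mutant replicate 2 4.41 and -0.08. Between wildtype replicate 2 and mutant replicate 1 it was 1.26 and -0.003 over the same sets.

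**Figure D4:**
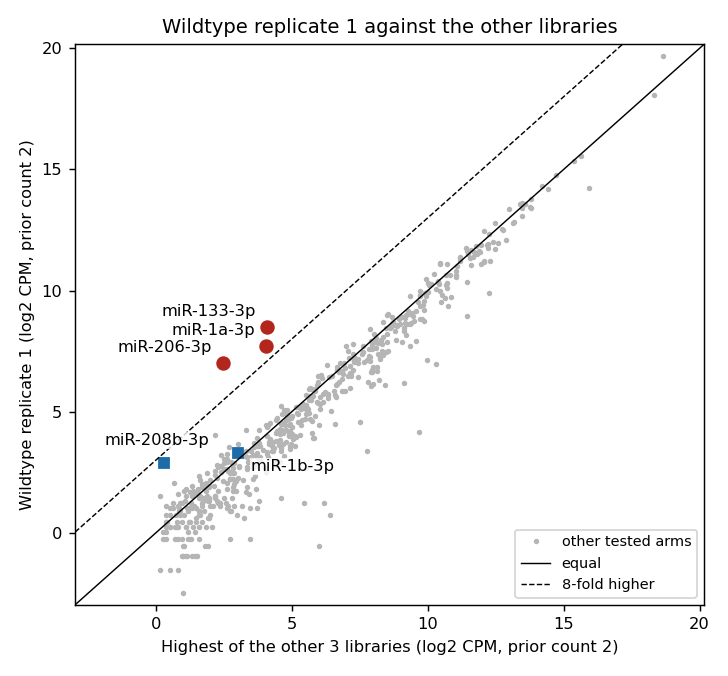
Each tested arm by its level in wildtype replicate 1 (vertical) and in the highest of the other 3 libraries (horizontal), in log2 CPM (prior count 2). Only the 3 muscle arms (red) lie above the dashed line of an 8-fold excess, while miR-208b-3p and miR-1b-3p (blue squares) lie below it.

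The arms most like the muscle miRNAs in pattern were ranked by the distance of their centred log2 CPM over the 4 libraries from the mean of the 3 muscle arms. Nearest was miR-208b-3p, which comes from an intron of the slow and embryonic heart myosin gene Myh7, at a distance of 1.76 log2 units. It had 43 and 4 reads in wildtype against 11 and 10 in the mutant, or 7.19 and 0.452 CPM against 0.552 and 1.05 CPM. The muscle arms themselves lay at 0.429 to 0.771. Next came miR-295-3p (2.57), a miRNA of embryonic stem cells, with 97 and 38 reads in wildtype against 61 and 41 in the mutant, and miR-701-3p (2.60). Last of the 5, at 2.74 and 2.81, were groups of predicted hairpins that share their arm. With 4 libraries and counts this low, the order after miR-208b-3p rests on few reads.

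Markers of heart muscle moved in part with the muscle miRNAs. MiR-208a-3p, from the adult heart myosin gene Myh6, had 24 and 3 reads in wildtype against 28 and 10 in the mutant. This was 4.02 and 0.339 CPM against 1.41 and 1.05 CPM. Mutant replicate 1 had more reads than wildtype replicate 1. The gap in CPM between them rests in part on their TMM factors, 1.38 and 0.617. MiR-499-5p, from the myosin gene Myh7b, had 241 CPM in wildtype replicate 1, then 447, 764 and 297 CPM in wildtype replicate 2 and mutant replicates 1 and 2. It was lower in both libraries of 50 nt than in both of 46 nt, and lowest in the library where the muscle miRNAs were highest. The other arm, miR-499-3p, did not show this order, with 120 and 58.3 CPM in wildtype against 98.5 and 141 CPM in the mutant. The 3 heart hairpins summed to 372 and 506 CPM in wildtype against 864 and 441 CPM in the mutant, and miR-499 made up most of that.

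The smooth muscle, skin, cartilage, pancreas and gut, neural and hepatocyte lists were not highest in wildtype replicate 1, whereas the erythroid list was. The smooth muscle list, led by miR-143-3p, summed to 1365 CPM there and to 1399 to 2153 CPM in the other libraries. The skin list, led by miR-203-3p, summed to 30.8 CPM there and 35.4 to 63.0 CPM elsewhere. The cartilage hairpin Mir140 had 410 CPM there and 357 to 614 CPM elsewhere. The pancreas and gut list, led by miR-194-5p, had 2478 CPM there and 2473 to 4454 CPM elsewhere, and the neural list, led by miR-9-5p, 61.9 CPM there and 71.4 to 416 CPM elsewhere. The hepatocyte marker Mir122 had its lowest level there, 19982 CPM, against 29237 to 67557 CPM. Except for skin, these lists were lower in both libraries of 50 nt than in both of 46 nt. Mutant replicate 2 had 1399 CPM for smooth muscle, 2473 CPM for pancreas and gut, 71.4 CPM for neural and 29237 CPM for Mir122. Wildtype replicate 2 and mutant replicate 1 had 2153 and 2105, 4454 and 4420, 357 and 416, and 51534 and 67557 CPM in that order. The erythroid list summed to 1122350 CPM in wildtype replicate 1, a TMM-scaled value that can pass 1000000. It summed to 585817, 248613 and 332750 CPM in wildtype replicate 2 and mutant replicates 1 and 2. It held 69.3% of the reads on tested arms in wildtype replicate 1 and 56.5%, 34.3% and 40.5% in the others. MiR-451a-5p, a red cell miRNA whose maturation is known to need slicing by Ago2, made up 51.8% and 40.1% of those reads in wildtype against 0.166% and 0.117% in the mutant. MiR-144-3p, from the same cluster, had 277218 CPM in wildtype replicate 1 and 163404 to 326373 CPM elsewhere. The part of the erythroid share in the muscle miRNA level was not tested.

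**Figure D5:**
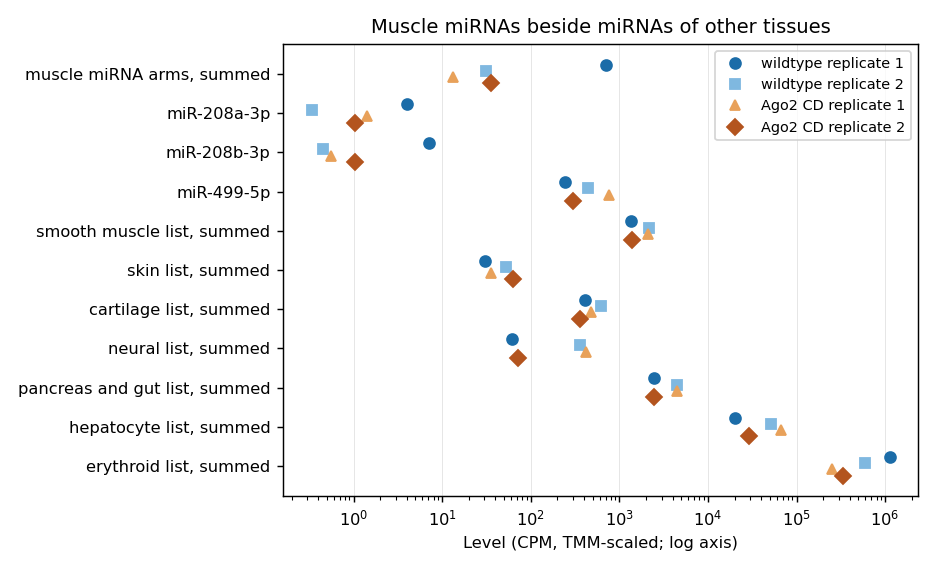
Summed level of the muscle miRNAs beside heart miRNAs and lists of other tissues in each library, in CPM on a log axis. Wildtype replicate 1 (dark blue circles) is highest for the muscle miRNAs (715 CPM), miR-208a-3p, miR-208b-3p and the erythroid list. For miR-208a-3p this is 24 reads, against 28 in mutant replicate 1 before scaling. Wildtype replicate 1 is lowest for miR-499-5p and the smooth muscle, skin, neural and hepatocyte lists.

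Fragments of muscle mRNA were looked for as a second sign of muscle RNA. Reads of at least 20 nt that matched 1 protein-coding gene numbered 46824 and 54007 in wildtype against 164624 and 126577 in the mutant. The 32 skeletal muscle genes had 3 and 0 such fragments in wildtype against 3 and 4 in the mutant, or 0.641 and 0 per 10000 against 0.182 and 0.316. A count of 0 allows 0.555 per 10000 in wildtype replicate 2. Tnnt1, a slow skeletal troponin, had 3 fragments in mutant replicate 2, and Ckm, the muscle creatine kinase, 1 in wildtype replicate 1. Chrna1, a subunit of the muscle acetylcholine receptor, and Eno3, the muscle enolase, had 1 each in mutant replicate 1. A difference in skeletal muscle mRNA was not detectable at this depth.

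The 15 heart genes had 0 and 1 fragments in wildtype against 3 and 6 in the mutant, or 0 (which allows 0.641) and 0.185 per 10000 against 0.182 and 0.474, most of them from Hand2, a transcription factor also made outside the heart. The 21 genes of striated muscle in general had 15 and 17 in wildtype against 24 and 17 in the mutant. Per 10000 fragments this was 3.20 and 3.15 in wildtype against 1.46 and 1.34 in the mutant, so the wildtype libraries were the higher ones. Such a separation was not particular to muscle. Neural genes were also higher in wildtype (0.427 and 0.555 against 0.304 and 0.158). Skin genes (0.641 and 0.741 against 1.34 and 1.19) and smooth muscle genes (0.214 and 0.370 against 0.547 and 0.395) were higher in the mutant. Tpm1, a tropomyosin that nonmuscle cells make too, held 9, 16, 20 and 15 of the striated fragments. This was 1.92 and 2.96 per 10000 in wildtype against 1.21 and 1.19 in the mutant. The other 20 genes stood at 1.28 and 0.185 per 10000 in wildtype against 0.243 and 0.158 in the mutant, from 6, 1, 4 and 2 fragments. Ttn, the giant spring protein of the sarcomere, had 4 fragments in wildtype replicate 1, 1 in mutant replicate 2 and 0 in the other libraries. The liver's own genes were plain by contrast: 12 hepatocyte genes had 303 and 424 fragments per 10000 in wildtype against 574 and 404 in the mutant, led by Alb, and 12 erythroid genes 350 and 377 against 365 and 314, led by Hbb-bs. The part of muscle tissue in the level of the muscle miRNAs was not tested. In such bulk samples more cells of a type and more RNA per cell cannot be told apart.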

How the data were processed

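The authors deposited counts: per library, distinct small RNA read sequences with the number of reads of each, not normalized. Per the labels' protocols, RNA was taken with Trizol from frozen livers and libraries were made with a modified TruSeq small RNA procedure. The submitters' processing notes name cutadapt. The sources used here do not give its settings, an aligner or a build. Repeated rows of a sequence were added up, and the 0.183% to 0.256% of reads holding an N were dropped. Reads were matched to GENCODE vM21 hairpins (GRCm38), and a read went to the 5p or 3p arm by where its middle lay from the hairpin's midpoint. Arms were merged where their commonest reads began with 18 shared bases or one held the other. Reads of several arms (0.00878% to 0.0293%) were left out. Tailed reads kept at least 18 templated bases before 1 to 3 added ones. Messenger RNA fragments matched 1 gene of the annotation, outside hairpins.

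Arm counts were tested with edgeR 4.0.16 (glmQLFit, glmQLFTest, TMM, filterByExpr; R 4.3.3), Benjamini-Hochberg adjusted over all arms, two-sided. SE is the fold change over the square root of F. The edgeR step was also run on simulated counts, with the same spread set for every arm and no effect of read length. That run therefore does not show how the test behaves on these libraries. DESeq2 1.42.0 was an alternative. Shares used SciPy 1.17.1 (exact Clopper-Pearson intervals, exact permutation tests). Named are each member arm, the 5 arms nearest in pattern, and up to 4 genes per tissue list with most fragments. The list of opposite-strand hairpins also held Mir133c, which lies elsewhere. Members and lists were chosen with earlier results of these data known. The wider read set (16 to 27 nt with tails), the scalings of the 8-fold count and the counts of read ends were added after seeing the data. P-values measure the spread between these libraries.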

Additional observations from a re-analysis of the deposited data

How the results depend on the processing

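Low counts limit the 3 libraries other than wildtype replicate 1, with 265 to 335 muscle reads each. The count of 2 called arms (1 higher, 1 lower) was 6 by DESeq2 (1 and 5), 11 without a filter (1 and 10), 1 with reads of 20 to 24 nt (higher) and 10 with a batch term for read length (3 and 7). It ranged from 0 (edgeR, without Ago2 CD replicate 1 or 2, with 14 and 10 arms at an unadjusted p under 0.05) to 4 on leaving out a library. With the replicate block it was 2. The deviations of equally numbered libraries correlated at -0.72 over arms, and the crossed pairing is the read length. With read length in the edgeR model the log2 fold changes were -2.72 for miR-1a-3p, -3.0 for miR-133-3p and -2.86 for miR-206-3p (adjusted p = 0.0835, 0.0835 and 0.145). With the replicate block they were -2.70, -2.90 and -2.66 and not called. Reads on arms as library size moved the median of all arms from 0.04 to 0.74 and the fold changes to -2.59, -3.13 and -3.19. On leaving out a library the fold changes ranged from -4.47 to -0.74 for miR-1a-3p, -5.32 to -0.12 for miR-133-3p and -5.17 to 0.27 for miR-206-3p.

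The log2 excess of wildtype replicate 1 over wildtype replicate 2 in the tested muscle arms, 4.50, was 3.86 when scaled to arm reads, 3.64 when scaled to the library's reads from 18 nt up, 4.32 with reads of 20 to 24 nt and 4.61 with the widest read set. The difference in the miR-206-3p share turned from -0.53 points to 1.81 with reads of 20 to 24 nt, which drop the 19 nt form, to 0.18 with tailed reads and to 0.76 with the widest set. Leaving out a library gave -11.7 to 10.7 points for it, -19.8 to 7.19 for the miR-133b share and -0.0071 to 2.56 for the main 5′ end. The cause was not tested.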
